A study of Mus musculus with 4 samples.

Results

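The comparison described here sets the array labelled Ehf knockout against the array labelled wild-type stem cells, gene by gene, in cells sorted from mouse small intestine. Its members are all array features that carry exactly 1 gene symbol, which were 31270 of the 72688 features of the table and came to 30714 genes after 1 feature was kept for each gene. Both arrays were hybridised with total RNA of cells that the labels call GFP-positive (Lgr5GFP+) intestinal stem cells from 8-week-old Lgr5GFP-CreERT2 mice, in which green fluorescent protein and an inducible Cre recombinase are expressed from Lgr5. The wild-type array carries no further change, and the other sample is labelled Ehf-/-, with the deleted part of the gene not given in the labels. The array of GFP-negative (non-stem) wild-type cells and the LncGata6 mutant array (GFP-positive) of the same series are quoted for context only. The array labelled non-stem held genes of other organs at high levels: all 13 measured liver genes and 9 of 10 kidney genes were at or above its control limit, with medians of 11.36 and 8.76, against 1 and 0 genes on the wild-type array. Alb, serum albumin, was at 12.52 there and Umod, the kidney protein uromodulin, at 10.10, which goes against its label as intestinal cells, and the part of these genes in its other values was not tested. The collection protocol of all 4 samples speaks of a sort for ILCreg, a regulatory innate lymphoid cell, so the labels leave 2 descriptions of the sorted cells. There was 1 array per group, so no difference has a replicate check and no error, test or p-value can be given.

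Ehf is a transcription factor of the ETS family that is made mainly in epithelia, and its DNA-binding domain recognises a GGAA core. At the base of the intestinal crypt, stem cells carry Lgr5 and Lgr4, receptors for R-spondins. R-spondin binding keeps the ubiquitin ligases Rnf43 and Znrf3 away from the Wnt receptors, so Wnt signalling persists and the stem cells renew. Their offspring become absorptive enterocytes or secretory Paneth, goblet, enteroendocrine and tuft cells. As the study is known, it placed Ehf upstream of Lgr4 and Lgr5, and the knockout array addresses what stem cells express without it.

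Values are RMA levels on the log2 scale, so a difference of 1 is a 2-fold change. Differences are given as Ehf knockout minus wild-type stem. A gene was called higher or lower when it passed both limits, which were a difference of at least 1 and a brighter value at or above the 95th percentile of the negative control features of its own array. That control limit was 5.62 on the wild-type array and 5.19 on the Ehf knockout array. By this rule 664 genes were higher (2.16%) and 1152 were lower (3.75%), together 5.91% of the 30714 genes. Among 19242 protein-coding genes the shares were 2.64% higher, 5.17% lower and 7.81% either way.

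The median difference over all genes was -0.20, and scaling moved the balance of calls. With each array centred on its median 807 genes were higher and 881 lower, quantile normalization gave 882 and 798, and cyclic loess gave 872 and 788. The share of calls that were higher was thus 36.6% as deposited and 47.8%, 52.5% and 52.5% under these scalings. At a stricter control limit, the 99th percentile, 150 genes were higher and 179 lower. Control features show how often the rule calls features outside the genes compared. Of 5222 negative controls 132 passed both limits (2.53%), and of 1324 positive controls 250 did (18.9%). Most negative controls were too dim to be called. Of features at or above the limit on either array, 38.0% of 347 negative controls, 27.8% of 900 positive controls and 28.5% of 6381 genes were called. A difference of 1 thus does not set genes apart from controls. Differences of at least 4 were found in 0 of the negative and 0 of the positive controls but in 198 genes, 53 of them higher and 145 lower. Small differences are therefore of the size seen in controls, and the description below leads with large differences and with groups of genes.

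**Figure D1:**
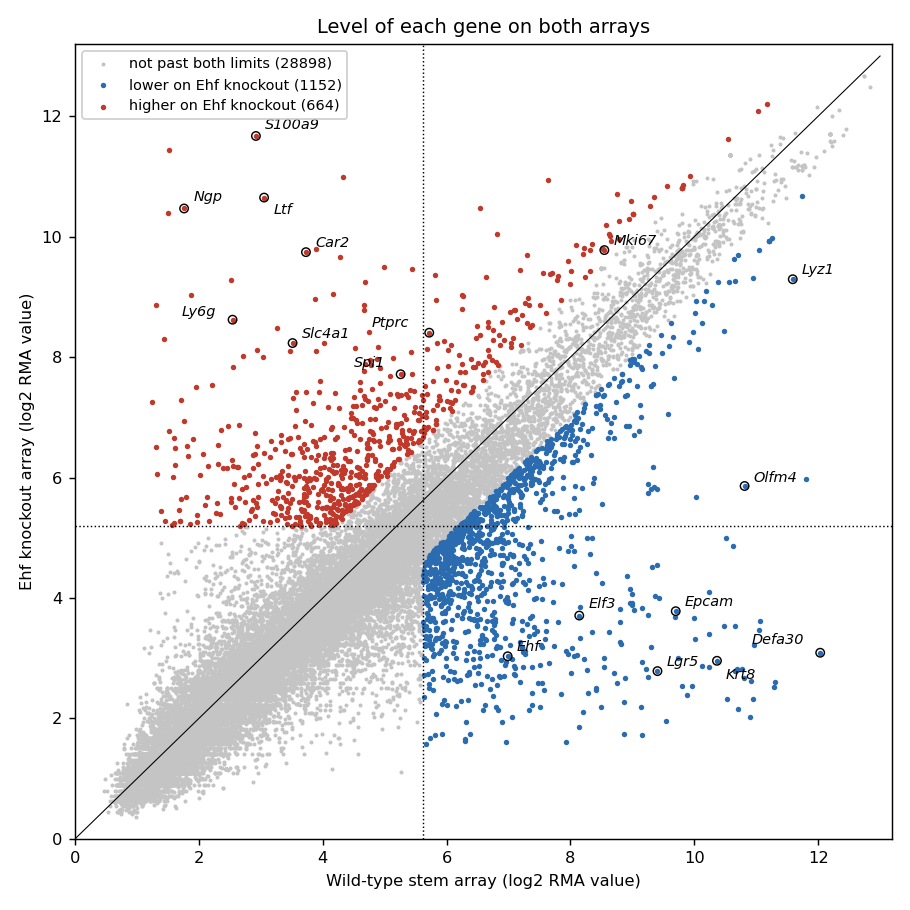
Each point is 1 of 30714 genes, with its log2 RMA value on the wild-type array on the horizontal axis and on the Ehf knockout array on the vertical axis; red and blue points passed both limits, dotted lines are the control limits of 5.62 and 5.19, and the solid line marks equal values. Lgr5, Epcam, Krt8 and Defa30 lie far to the right at values under the control limit of the knockout array, while S100a9, Ngp and Ltf lie far up at values under the limit of the wild-type array.

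The targeted gene was read first. Ehf was at 6.99 on the wild-type array and at 3.03 on the Ehf knockout array, under the control limit, and was at least 3.47-fold lower there. It was also under the control limit on the GFP-negative array, at 3.75, and on the LncGata6 mutant array, at 5.09. The genes that flank Ehf were not called. Elf5, an epithelial ETS gene on its one side, was at 2.00 and 2.04, and Apip, a methionine salvage enzyme on the other, was at 4.23 and 4.50. Cat, which encodes catalase and lies next beyond Elf5, was at 7.79 and 7.81. Elf5 and Apip were under the control limits of both arrays and so could not show a fall, and of these genes only Cat was measured above them.

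The labelled cell type was then checked against its markers. Epcam, the adhesion molecule of epithelial cells, was at 7.22, 9.70 and 10.65 on the GFP-negative, wild-type and LncGata6 mutant arrays and at 3.78 on the Ehf knockout array. Lgr5 was at 9.40 on the wild-type array and at 2.79 on the Ehf knockout array, close to its 3.03 or 3.04 on the other arrays. Both markers that define the labelled cells thus lay under the control limit of the array labelled Ehf knockout. Lgr5 by itself does not bear on the label. The study placed Ehf upstream of it, and on the LncGata6 mutant array it was also under the limit of 5.31. Of 40 measured genes of epithelial adhesion and keratins, 33 were at or above the control limit on the wild-type array and 1 was on the Ehf knockout array, and the list's median level was 6.89 and 3.98. Of 25 measured pan-leukocyte genes, 4 and 21 were at or above the limits, with median levels of 4.66 and 6.84. Ptprc, the common leukocyte antigen CD45, was at 6.25 on the GFP-negative, 5.72 on the wild-type, 7.80 on the LncGata6 mutant and 8.40 on the Ehf knockout array. The data therefore go against the label of that array, and it is named below only by its label. The wild-type array held genes of differentiated cells too. The Paneth cell gene Defa30 was its brightest protein-coding gene outside predicted genes, at 12.03, and 12 of 13 Paneth cell genes were at or above its limit. The brush border gene Sis was at 8.86 there and the endothelial gene Igfbp7 at 8.99. The wild-type array is thus not a reference of stem cell genes alone. In a bulk sample fewer cells of a type and less RNA per cell cannot be told apart, and the part that the kind of cells on each array plays in the differences below was not tested.

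**Figure D2:**
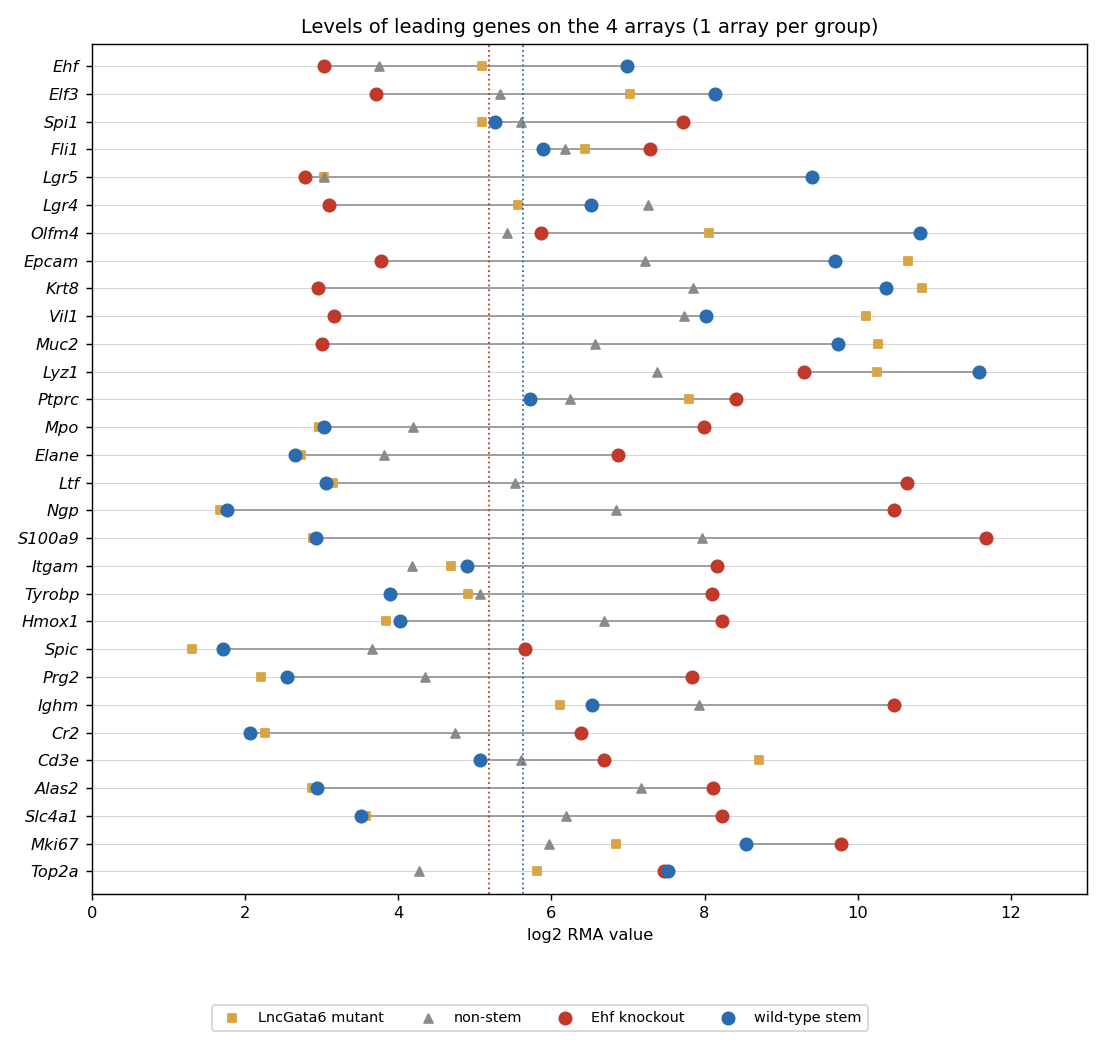
Log2 RMA values of 30 genes on the 4 arrays, 1 array per group; circles mark the wild-type (blue) and Ehf knockout (red) arrays, triangles the GFP-negative (non-stem) and squares the LncGata6 mutant array, and the dotted lines are the control limits of 5.62 (blue) and 5.19 (red). From Ehf to Lyz1 the knockout values of all genes but Spi1 and Fli1 lie to the left of the wild-type values, and from Ptprc to Mki67 they lie to the right; Top2a is at 7.53 and 7.47.

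Among members of the ETS family, 3 of 24 measured genes were higher and 3 lower. The lower genes were Ehf, its close epithelial relative Elf3 and Ets2, a signal-responsive member. Elf3 was at 8.14 on the wild-type and 3.71 on the Ehf knockout array, at least 7.74-fold lower, with 5.33 and 7.02 on the GFP-negative and LncGata6 mutant arrays. Ets2 went from 6.90 to 4.58. The higher genes have known roles in blood cells. Spi1, which encodes PU.1, the master factor of myeloid and B cells, was at 5.26 and 7.71 and at least 4.26-fold higher. Fli1, a factor of blood and vessel cells, was at 5.89 and 7.29. Spic, a factor of iron-recycling red pulp macrophages, was at 1.71 and 5.65. The other 18 members, Elf1 (7.85 and 7.45) and Gabpa (5.23 and 4.72) among them, did not pass both limits.

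Of 8 measured genes of the R-spondin axis, only the receptors Lgr5 and Lgr4 were lower and none was higher. Lgr4 was at 6.52 on the wild-type array and at 3.10 on the Ehf knockout array, at least 2.51-fold lower. The order over the other arrays differed between the receptors: Lgr5 was near 3 on all but the wild-type array, while Lgr4 was at 7.25 on the GFP-negative and 5.57 on the LncGata6 mutant array. Lgr5 was at least 18.6-fold lower on the Ehf knockout array. The third receptor Lgr6 (3.65 and 3.36), the ligase Znrf3 (4.60 and 3.62) and the 4 R-spondins lay under the control limits of both arrays. The feature of Rnf43 carries several symbols and was left out.

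Wnt receptors and targets of the pathway were called in part. Of 15 Wnt receptor genes, Fzd5 (6.70 and 4.19) and Ryk (6.26 and 4.63) were lower. Of 14 Wnt targets, Sox9 (6.55 and 4.05), a crypt transcription factor, and Axin2 (5.92 and 3.99), a feedback inhibitor of the pathway, were lower. Myc stood at 6.60 and 6.05 and Cd44 at 6.60 and 6.76, so these targets were above the limits on both arrays and differed by less than 1. Ascl2, a master factor of crypt base stem cells, was under both limits at 4.68 and 3.95. None of the 5 measured subunits of NURF, a chromatin remodelling complex, passed both limits. In the Notch pathway 1 of 18 genes was lower, the target Hes1 (6.12 and 4.52), and 1 was higher, the receptor Notch2 (5.05 and 6.58).

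Of 24 measured crypt base stem cell genes 8 were lower and 1 was higher, with a median difference of -1.07. Olfm4, a secreted glycoprotein of crypt base cells, was at 10.81 on the wild-type and 5.86 on the Ehf knockout array, 31.0-fold lower. Its values on the GFP-negative and LncGata6 mutant arrays were 5.42 and 8.06. Slc12a2, a chloride cotransporter, was at 8.42 and 4.42, and Prom1, the membrane protein CD133, at 6.67 and 4.87. Lrig1, a brake on growth factor receptors in crypt cells, was at 6.04 and 4.28. Slc14a1, a urea transporter that red cells also carry, ran the other way, at 4.24 and 6.21. In all, 5 genes of the list were at or above the limit on the knockout array against 11 on the wild-type array.

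The wider epithelial programme was lower as well. Of 26 gut transcription factors 15 were lower and none higher, with a median difference of -2.23. The largest difference was at Hnf4g, an enterocyte factor, at 7.38 and 2.22. Gata6, the factor beside which LncGata6 lies, was at 7.21 on the wild-type and 3.17 on the Ehf knockout array, with 5.08 and 7.62 on the GFP-negative and LncGata6 mutant arrays. Its antisense partner Gata6os was under the limits on both arrays, at 4.92 and 4.04. Cdx2, which sets intestinal identity, was at 6.71 and 4.27, and Hnf4a at 7.31 and 4.57. Only Klf4 remained above the control limit on the knockout array, at 5.57 after 7.19.

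Of the 40 adhesion and keratin genes 33 were lower and none higher. Krt8, the keratin of simple epithelia, was at 10.37 and 2.96 and at least 36.2-fold lower. Cdh1, which encodes E-cadherin, was at 9.24 and 3.71. Dsp, a desmosome protein, was at 8.54 on the wild-type array and fell by 5.54 on the log2 scale, to under the limit. Cldn15, a pore-forming claudin, was the only gene of the list at or above the limit on the knockout array, at 5.47 after 7.08. The remaining 7 genes were not called and their wild-type values lay under the control limit. Every adhesion gene that the wild-type array measured above its control limit was thus called lower.

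Genes of differentiated cells ran in the same direction. Of 13 Paneth cell genes 12 were lower, with a median difference of -7.38, the lowest of the 58 lists. Defa30, an antimicrobial alpha-defensin, was at 12.03 on the wild-type and 3.09 on the Ehf knockout array, at least 115-fold lower, with 6.77 and 10.83 on the GFP-negative and LncGata6 mutant arrays. Over the whole alpha-defensin family 17 of 23 genes were lower. Its members are near-identical copies whose features can read each other's transcripts, so they are not independent. Lyz1, the lysozyme of Paneth cells, was at 11.59 and 9.29 and stayed above the limit. Its near-identical copy Lyz2, the lysozyme of myeloid cells, was at 10.54 and 11.63, so the level of each is uncertain.

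Of 21 goblet cell genes 9 were lower, among them Muc2, the main gel-forming mucin (9.74 on the wild-type array, a difference of -6.74), Agr2, a mucin-folding enzyme (9.80 and 2.53), and Clca1 (9.96 and 2.54). Of 25 enteroendocrine genes 6 were lower, including Reg4 (8.86 and 2.27), Chgb, a granule protein (6.82 and 3.20), and Gcg, the proglucagon gene (6.36 and 2.73). In the tuft cell list 3 of 17 genes were higher and none lower. They were Alox5ap (4.99 and 9.49), Alox5 (3.69 and 5.46) and Plcb2 (4.12 and 5.62), genes of leukotriene synthesis and phospholipase signalling that myeloid cells also express. The defining tuft cell genes Dclk1 (4.33 and 2.73), Trpm5 (3.57 and 2.95) and Pou2f3 (4.07 and 2.73) lay under both control limits.

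Genes of absorption were lower too. Of 19 microvillus genes 14 were lower, led by Cdhr5, a brush border cadherin (8.11 and 3.05), and Vil1, the actin bundler villin (8.02 and 3.16). Of 17 brush border hydrolases 9 were lower, led by Sis, which encodes sucrase-isomaltase (8.86 and 1.75), and Enpep (7.85 and 2.40). Of 18 genes of fat absorption 8 were lower, led by the fatty acid carriers Fabp2 (9.54 and 1.95) and Fabp6 (9.22 and 2.83). On the LncGata6 mutant array the same genes were brighter than on the wild-type array for Sis (10.75), Vil1 (10.10) and Fabp2 (12.19) but not for Fabp6 (8.88).

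Some of these functional groups held exceptions. Among 23 nutrient carriers 9 were lower, such as Slc51b, a bile acid exporter (8.76 and 2.58), and 3 were higher. The higher ones were Slc40a1, the iron exporter ferroportin (3.33 and 6.70), Slc28a2, a nucleoside carrier (3.70 and 5.73), and Slc16a10, an aromatic amino acid carrier (5.15 and 6.26). Among 25 genes of ion and water transport 15 were lower, such as the chloride channel gene Cftr (6.58 and 2.14), and 2 were higher. These were the carbonic anhydrases Car2 (3.73 and 9.74) and Car1 (1.25 and 7.25), which also stand in the red cell list. Among 23 genes of epithelial defence 11 were lower, including the lectins Lgals2 (10.91 and 2.03) and Reg3b (10.96 and 2.33) and the immunoglobulin transporter Pigr (10.47 and 3.54). Lcn2, an iron-scavenging lipocalin that also belongs to neutrophil granules, was higher in that list, at 4.29 and 9.67.

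**Figure D3:**
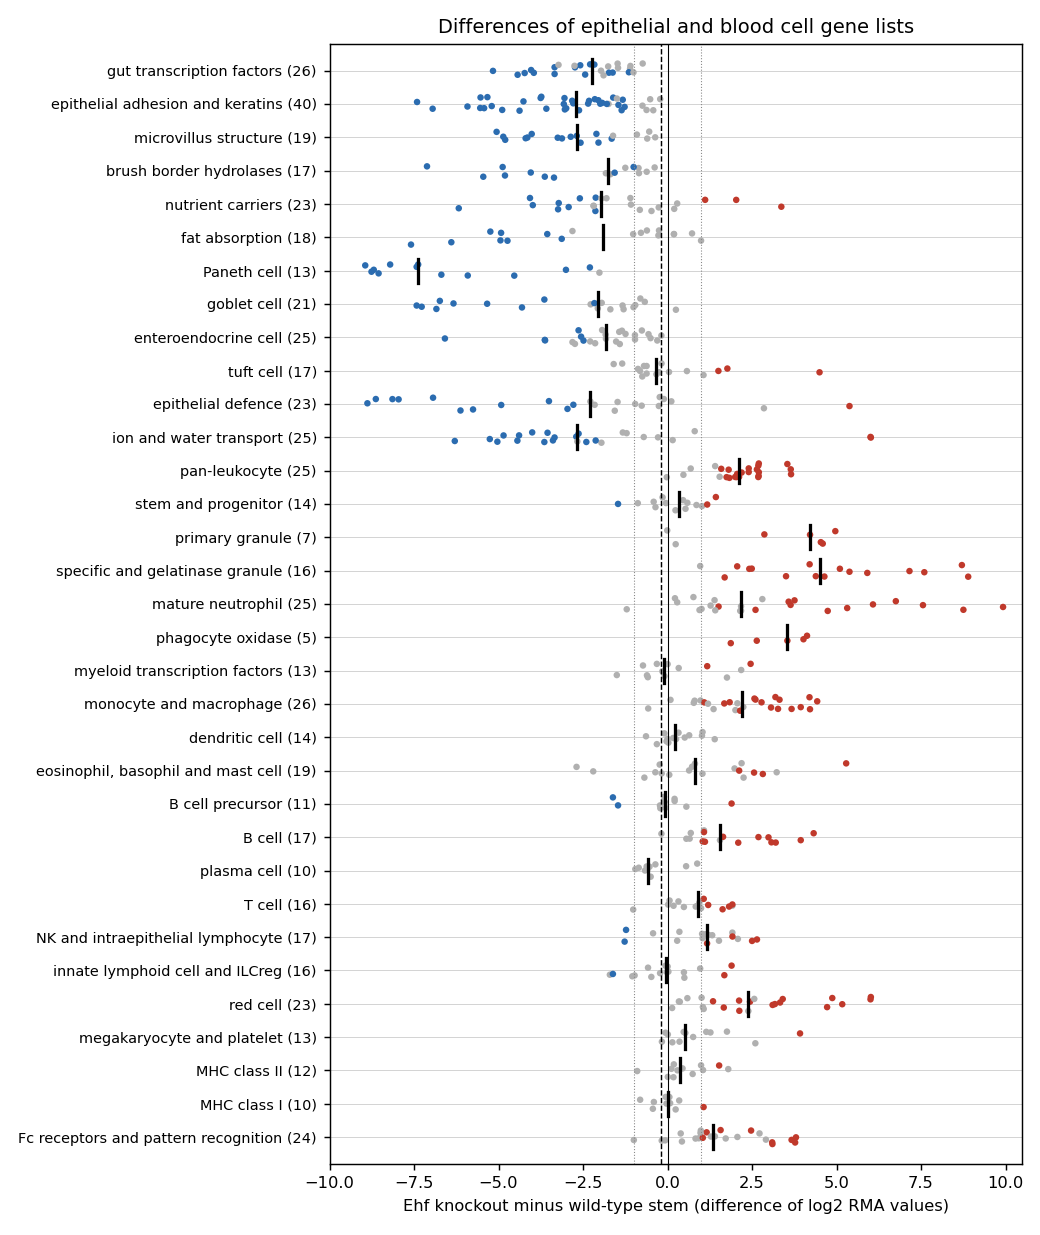
Each point is 1 measured gene of a list (number of genes in brackets), placed by its difference of log2 values, Ehf knockout minus wild-type stem; red and blue points passed both limits, grey ones did not, black bars are list medians, dotted lines mark -1 and 1, and the dashed line marks the median of all genes, -0.20. The epithelial lists from gut transcription factors to goblet cell lie mostly to the left, with Paneth cell genes farthest at a median of -7.38, and the granule and oxidase lists lie to the right.

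The largest differences upward were mostly at genes of the neutrophil lists. These lists, like all others here, were chosen with earlier results of these data known, so the counts are descriptive. Of the 20 protein-coding genes with the largest positive differences, 15 are in one of the lists, 12 of them in the neutrophil lists, 2 in the red cell list and 1 in the eosinophil list, and of the 20 with the largest negative differences 16 are. S100a8 led the upward genes, at 7.88, 1.51 and 1.24 on the GFP-negative, wild-type and LncGata6 mutant arrays and 11.44 on the Ehf knockout array, at least 56.2-fold above the wild-type array. Its partner S100a9, with which it forms the antimicrobial calprotectin, was at 7.96, 2.92, 2.89 and 11.67 in the same order. For both genes the knockout array was highest, the GFP-negative array next, and the other 2 arrays were under their control limits.

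Neutrophil granules form in sequence, and genes of each stage were higher. Of 7 primary granule genes, made in promyelocytes, 5 were higher. They were Mpo, which encodes myeloperoxidase (3.03 and 8.00), the serine proteases Elane (2.65 and 6.87), Ctsg (1.83 and 6.36) and Prtn3 (3.69 and 6.56), and Ms4a3 (1.61 and 6.20). Of 16 genes of specific and gelatinase granules, made later, 15 were higher, with a median difference of 4.51. Ltf, lactoferrin, was at 3.05 and 10.65, Ngp at 1.76 and 10.47, Camp, the cathelicidin precursor, at 3.89 and 9.80, and the collagenase gene Mmp8 at 1.88 and 9.04. Arg1 was the member not called, at 2.81 and 3.77.

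Of 25 mature neutrophil genes 12 were higher and none lower. They included Ly6g, the surface marker of mouse neutrophils (2.54 and 8.62), Ifitm6 (1.30 and 8.86), Retnlg (2.52 and 9.27), the chemokine receptor Cxcr2 (2.54 and 6.29) and the growth factor receptor Csf3r (2.94 and 6.53). All 5 measured genes of the phagocyte oxidase, which makes superoxide, were higher. Cybb, its catalytic subunit, was at 5.44 and 9.47 and Ncf1 at 4.66 and 8.79. Of 13 myeloid transcription factors 2 were higher, Spi1 and Runx1 (4.13 and 5.30). The granulocyte factor Cebpe was under both limits, at 2.53 and 4.71.

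Genes of the monocyte and macrophage list were also higher, 16 of 26, with a median difference of 2.19. That list holds general myeloid genes such as Tyrobp and Itgam, so its count does not set macrophages apart from neutrophils. Tyrobp, an adaptor of myeloid receptors, was at 3.90 and 8.09, Itgam, the integrin chain CD11b, at 4.89 and 8.16, and Csf1r, the receptor of macrophage growth factor, at 4.46 and 7.07. Hmox1, the haem-degrading enzyme, was at 6.69, 4.02 and 3.84 on the GFP-negative, wild-type and LncGata6 mutant arrays and 8.23 on the Ehf knockout array. Together with Spic, Vcam1 (4.75 and 7.95) and Slc40a1 it belongs to the genes known from macrophages that recycle red cell iron. Other macrophage markers stayed under both limits, among them Cd163 (2.23 and 4.24), Timd4 (2.09 and 3.45), Marco (3.58 and 4.77) and Vsig4 (1.43 and 2.23). None of 14 dendritic cell genes was called. Of 19 eosinophil, basophil and mast cell genes 4 were higher, led by Prg2, the eosinophil major basic protein (2.55 and 7.83).

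Of 24 Fc receptors and pattern recognition genes 9 were higher. The largest differences were at Pirb, an inhibitory immunoglobulin-like receptor (3.52 and 7.32), Clec4n, the lectin dectin-2 (2.39 and 6.16), and Fcer1g, the shared Fc receptor chain (4.75 and 8.42). Tlr7 was at 2.17 and 5.27, only just above the limit. Antigen presentation genes were mostly not called: 1 of 12 in the MHC class II list, the protease gene Ctss (6.85 and 8.38), and 1 of 10 in the class I list, H2-M3 (4.37 and 5.44). H2-Ab1 was at 8.83 and 9.01 and B2m at 11.01 and 10.58, well above the limits on both arrays.

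Of the pan-leukocyte genes 20 of 25 were higher and none lower, with a median difference of 2.12. Itgb2, the common integrin chain of leukocytes, was at 4.51 and 8.16, Rac2, a GTPase of blood cells, at 5.81 and 9.36, and Cd53, a tetraspanin, at 6.63 and 9.33. These genes were also brighter on the LncGata6 mutant array than on the wild-type array, Rac2 at 7.80 and Itgb2 at 5.72. Of the 23 genes of the primary, specific and gelatinase granule lists, 1 was at or above the control limit on the wild-type array, 1 on the LncGata6 mutant array and 20 on the Ehf knockout array. Ltf and Mpo were under the limit on the LncGata6 mutant array, at 3.15 and 2.96.

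Promoters of genes called higher are shown because ETS factors were called in both directions. RefSeq promoter windows (GRCm38.p6) of 300 bases, from 250 before to 50 after the start site, were searched on both strands for the core GGAA and for 2 longer forms that contain it. GAGGAAGT is the form known for PU.1, and CCGGAAGT is the form shared by many other ETS proteins. GGAA was in 96.4% of 504 windows of higher genes and in 95.5% of 963 windows of lower genes. GAGGAAGT was in 57 windows of higher genes (11.3%), 21 of lower genes (2.18%), 573 of 19069 windows of protein-coding genes on the array and 3.20% of all 32851 windows. Genes at or above the control limit on the knockout array that were not called had it in 2.84% of 2609 windows. CCGGAAGT was in 1.59% of windows of higher genes, 4.05% of lower genes and 9.85% of the genes measured on the knockout array but not called. It was in 3.89% of all 32851 windows and 5.31% of the 19069 windows of protein-coding genes on the array. The share in lower genes was thus near that of all windows. By gene, GAGGAAGT was near the start site of 51 of 406 higher genes with a window, and families such as Ly6c1, Ly6c2 and Ly6g share promoter sequence. A match describes letters only and was not tested as a binding site.

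The windows of 4 higher genes with a match follow, 5′ to 3′ on the gene's strand, with GAGGAAGT or its reverse complement ACTTCCTC in capitals. They lie at chr3:90668821-90669120 (S100a8, plus strand), chr11:87793534-87793833 (Mpo, plus), chr10:79886062-79886361 (Elane, plus) and chr3:106790100-106790399 (Cd53, minus). Counted from the start site, with the first base before it as -1, the match begins at -172 in S100a8, -224 in Mpo, -85 in Elane and 7 in Cd53.
S100a8: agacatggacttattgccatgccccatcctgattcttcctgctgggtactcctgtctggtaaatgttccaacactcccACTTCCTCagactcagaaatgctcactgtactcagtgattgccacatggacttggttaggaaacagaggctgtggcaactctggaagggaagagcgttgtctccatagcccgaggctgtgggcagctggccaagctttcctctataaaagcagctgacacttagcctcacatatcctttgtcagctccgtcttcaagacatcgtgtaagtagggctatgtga
Mpo: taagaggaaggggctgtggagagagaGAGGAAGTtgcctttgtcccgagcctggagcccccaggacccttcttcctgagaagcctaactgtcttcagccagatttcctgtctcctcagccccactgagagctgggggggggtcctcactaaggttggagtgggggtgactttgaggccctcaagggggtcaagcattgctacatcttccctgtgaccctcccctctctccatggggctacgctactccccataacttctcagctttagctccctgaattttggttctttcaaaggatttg
Elane: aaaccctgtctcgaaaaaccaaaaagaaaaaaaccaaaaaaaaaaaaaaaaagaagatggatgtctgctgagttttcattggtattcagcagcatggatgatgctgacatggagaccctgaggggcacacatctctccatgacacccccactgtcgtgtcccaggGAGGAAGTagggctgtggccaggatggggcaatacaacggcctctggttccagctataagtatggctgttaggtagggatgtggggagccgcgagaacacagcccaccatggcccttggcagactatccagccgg
Cd53: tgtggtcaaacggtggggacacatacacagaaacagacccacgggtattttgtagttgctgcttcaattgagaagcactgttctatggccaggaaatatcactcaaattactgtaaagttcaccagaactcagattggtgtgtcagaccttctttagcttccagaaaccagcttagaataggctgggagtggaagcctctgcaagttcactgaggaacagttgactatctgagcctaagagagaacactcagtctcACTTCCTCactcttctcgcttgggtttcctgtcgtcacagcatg
The windows of 2 genes that were lower, Lgr4 (chr2:109917397-109917696, plus) and Elf3 (chr1:135258423-135258722, minus), hold neither longer form. The 4 higher genes were picked for a match, which only 11.3% of higher windows and 2.18% of lower windows hold. The printed windows are therefore examples and no comparison of higher with lower genes.
Lgr4: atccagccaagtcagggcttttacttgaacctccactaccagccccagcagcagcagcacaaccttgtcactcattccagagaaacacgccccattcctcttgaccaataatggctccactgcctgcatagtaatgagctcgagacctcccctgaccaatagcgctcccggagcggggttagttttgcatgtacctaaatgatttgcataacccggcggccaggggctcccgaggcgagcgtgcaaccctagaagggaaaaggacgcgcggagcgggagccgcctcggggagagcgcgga
Elf3: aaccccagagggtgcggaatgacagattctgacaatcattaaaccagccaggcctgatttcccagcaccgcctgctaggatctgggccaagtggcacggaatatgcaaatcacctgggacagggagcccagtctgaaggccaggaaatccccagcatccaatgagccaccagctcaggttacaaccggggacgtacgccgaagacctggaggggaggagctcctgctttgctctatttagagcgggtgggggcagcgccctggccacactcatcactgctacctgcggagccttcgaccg

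Lymphocyte genes were higher in part. Of 17 B cell genes 11 were higher. Ighm, the heavy chain of IgM, was at 7.93, 6.54 and 6.11 on the GFP-negative, wild-type and LncGata6 mutant arrays and 10.48 on the Ehf knockout array, 15.4-fold above the wild-type array. Cr2, the complement receptor of mature B cells, was at 2.06 and 6.39, Cd79b, a chain of the B cell receptor, at 4.68 and 7.88, and Ms4a1, which encodes CD20, at 4.61 and 7.59. Plasma cell genes were not called, 0 of 10, and Jchain, which joins secreted IgA and IgM, was at 8.62 and 8.02. Of 11 B cell precursor genes Il7r was higher (4.19 and 6.08) and Sox4 (5.64 and 4.03) and Myb (7.36 and 5.90) were lower, while Dntt, Igll1 and the Vpreb genes lay under both limits.

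Of 16 T cell genes 5 were higher, among them Cd3e, a chain of the T cell receptor complex (5.06 and 6.69), and Cd4 (4.06 and 5.98). Cd3e was higher still on the LncGata6 mutant array, at 8.71. NK and intraepithelial lymphocyte genes were divided, 4 of 17 higher and 2 lower. Nkg7 was at 4.54 and 7.19 and the chemokine gene Ccl5 at 6.66 and 8.58, and the granzyme Gzmk was higher at 2.73 and 5.23, just above the limit, while the granzymes Gzma (7.15 and 5.88) and Gzmb (5.83 and 4.61) were lower. On the LncGata6 mutant array Gzma was at 11.47 and Gzmb at 10.09. The lower calls of Gzma and Gzmb were lost under cyclic loess and under quantile normalization. The innate lymphoid list, which bears on the collection protocol, had 2 of 16 genes higher, Il7r and Tgfb1 (5.21 and 6.89), and 1 lower, Sox4. Its median difference was -0.04, and Il10, the cytokine that defines ILCreg, was under both limits at 3.01 and 2.43.

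Red cell genes were higher, 14 of 23 and none lower, with a median difference of 2.39. Alas2, the first enzyme of haem synthesis in red cell precursors, was at 7.17, 2.94 and 2.87 on the GFP-negative, wild-type and LncGata6 mutant arrays and 8.11 on the Ehf knockout array. Slc4a1, the anion exchanger of the red cell membrane, was at 3.51 and 8.23, and the Rhesus complex gene Rhag at 1.62 and 6.49. The erythroid factors Gata1 (2.58 and 3.63) and Klf1 (2.32 and 4.88) lay under both limits. Of 13 megakaryocyte and platelet genes only Ppbp, a platelet chemokine, was called (2.31 and 6.23). Of 14 blood stem and progenitor genes Lmo2 (4.44 and 5.87) and Runx1 were higher and Myb was lower. Kit (5.25 and 4.84), Cd34 (4.37 and 4.22) and Flt3 (2.77 and 3.79) were under both limits.

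Most genes called higher were highest on the knockout array, 534 of 664. The rule favours this, since a higher call requires a knockout value above the wild-type value, and a lower call the reverse. The counts in this paragraph therefore describe the called genes and are no separate result. Of the 664, 341 were at or above the control limit on the GFP-negative array, 253 on the LncGata6 mutant array and 144 on the wild-type array. Of the 1152 lower genes the knockout array was lowest of the 4 for 955, and 394 remained at or above its control limit. Across all 30714 genes, which are not independent replicates, the values of both arrays correlated with Pearson's r of 0.922. Over the 4051 genes at or above both limits r was 0.910.

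Genes of other tissues were called in part. Of 20 endothelial genes 4 were lower, led by Igfbp7 (8.99 and 3.91), Sparcl1 (7.10 and 2.84) and Cdh5, the cadherin of vessel walls (6.92 and 2.70). Of 19 stroma genes Acta2, smooth muscle actin (6.61 and 4.09), and Sparc (5.82 and 4.58) were lower. Vip, a neuropeptide of enteric nerves, was lower at 5.77 and 2.78. The LncGata6 mutant array was low as well, at 3.93 (Igfbp7), 2.54 (Sparcl1), 3.47 (Cdh5), 3.88 (Acta2), 4.50 (Sparc) and 2.81 (Vip). Endothelial genes at or above the limit numbered 13 (GFP-negative), 5 (wild-type), 0 (LncGata6 mutant) and 1 (Ehf knockout). Low values of these genes were thus not particular to the Ehf knockout array. Of 13 genes of the liver list Cps1, a urea cycle enzyme that gut epithelium also makes, was lower at 9.88 and 2.39, and Trf, transferrin, was higher at 4.61 and 7.46, while Alb was at 2.13 and 1.83. None of 10 kidney genes and none of 9 pancreas genes was called, and none of either list was at or above the limits on these 2 arrays.

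Few proliferation genes were called. Of 30 DNA replication genes Rrm2, a subunit of ribonucleotide reductase (5.09 and 7.38), and Mcm5, a helicase subunit (5.38 and 6.45), were higher and none was lower, with a median difference of 0.08. Of 33 mitosis genes Mki67 (8.55 and 9.78) and Knl1, a kinetochore protein (4.86 and 6.01), were higher and none was lower, with a median of 0.11. Top2a was at 7.53 and 7.47, Ccnb2 at 7.95 and 7.93 and Plk1 at 7.02 and 7.24. On the GFP-negative array Mki67 was at 5.97 and Top2a at 4.27. Mitosis genes at or above the control limit numbered 15 on the wild-type and 24 on the knockout array, whose limit is lower. At the wild-type limit of 5.62 on both arrays they numbered 15 and 19. The array with epithelial markers under its control limit thus held cell division genes at levels near those of the wild-type array.

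Genes of the immediate response to stimulation were lower, 15 of 24, with a median difference of -1.54. The list's median level was 7.16 on the wild-type and 5.45 on the Ehf knockout array. On the GFP-negative and LncGata6 mutant arrays it was 5.45 and 6.12, so levels under the wild-type array were not particular to the Ehf knockout array. Ccn1, a secreted matrix protein, was at 8.79 and 3.26, Atf3 at 8.52 and 4.25, and Jun, a subunit of AP-1, at 9.35 and 5.84. Fos was at 8.71 on the wild-type array, 3.25-fold lower on the knockout array, and remained above the limit, as 14 of the 24 genes did. Of 15 heat shock genes 6 were lower, led by the chaperone Hspa1a (9.02 and 3.79), and 3 were under each of the 3 scalings. Of 15 p53 targets 3 were lower, led by the cell cycle inhibitor Cdkn1a (8.05 and 4.53).

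Most genes of the metabolic lists were not called. Of 17 cholesterol synthesis genes 5 were lower and none higher, led by Hmgcs1, which makes HMG-CoA (8.28 on the wild-type array, a difference of -3.28), and Cyp51 (7.07 and 4.71). Of 17 genes of fatty acid oxidation and ketogenesis 5 were lower, led by Hadh (8.06 and 5.66) and Bdh1 (6.19 and 4.04), and 3 were after each scaling. Glycolysis was divided: Pfkp (6.35 and 4.84) and Hk2 (6.51 and 5.40) were lower, and Slc2a3, a glucose transporter (3.18 and 5.63), and Hk3, a hexokinase of leukocytes (3.62 and 5.60), were higher. Of 26 interferon response genes Rsad2 (3.50 and 6.39) and Ifi27l2a (3.79 and 5.23) were higher, and of 18 genes of the unfolded protein response 3 were lower, 1 after each scaling. Of 13 stable reference genes 1 was called, Hprt (7.44 and 6.32), and that call was lost after each scaling. The differences of the 13 ran from -1.12 to 0.74, with a median of -0.34. Gapdh was at 9.67 and 9.68, Actb at 10.37 and 10.74, and Sdha, a subunit of succinate dehydrogenase, at 6.43 and 5.45.

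**Figure D4:**
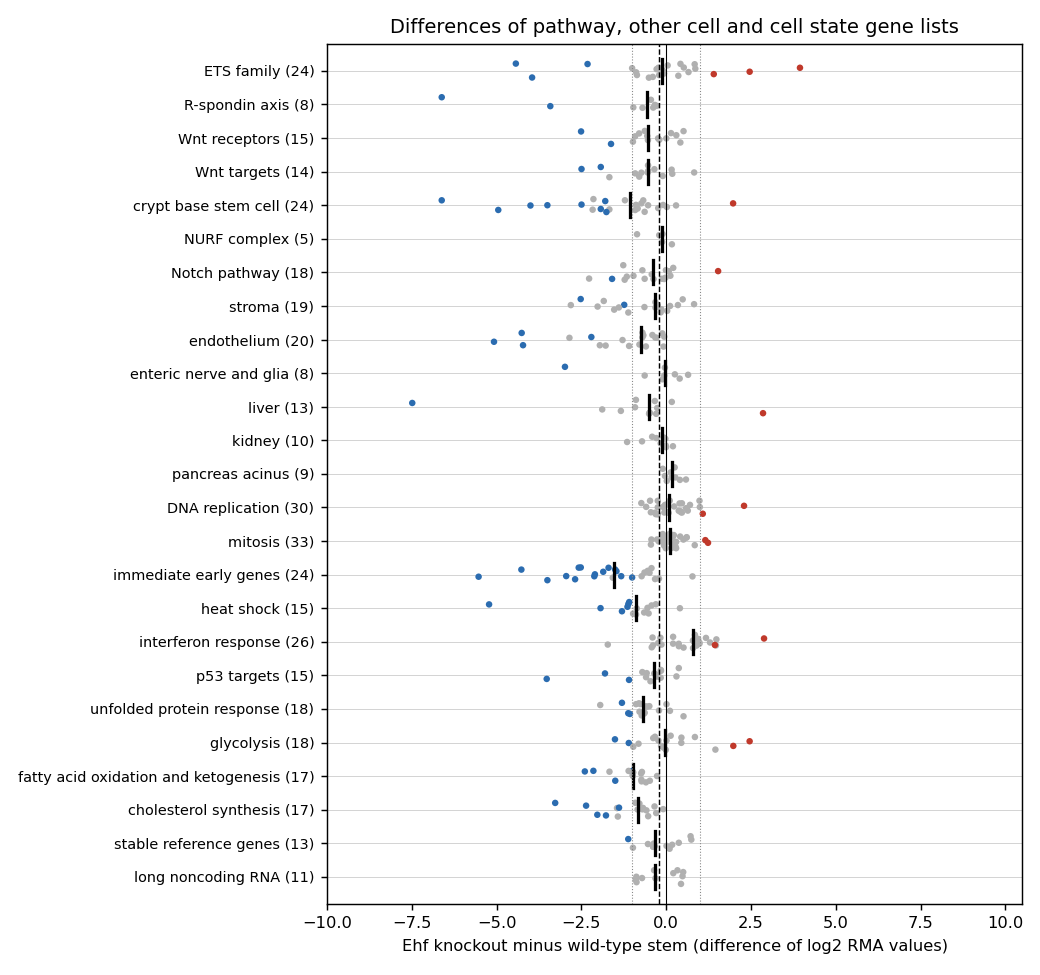
Differences of log2 values, Ehf knockout minus wild-type stem, for each measured gene of the pathway, other cell and cell state lists; red and blue points passed both limits, grey ones did not, black bars are list medians, dotted lines mark -1 and 1, and the dashed line marks the median of all genes, -0.20. DNA replication and mitosis genes gather near 0, with medians of 0.08 and 0.11, and immediate early genes lie to the left with a median of -1.54.

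Long noncoding RNA genes were rarely called, 5 higher and 5 lower of 3343 (0.15% each way, 0.299% together). The largest difference was at Tmem238l, annotated as noncoding in the gene table used, at 6.95 and 2.88. The next were Gm11695 (5.98 and 4.25) among the lower genes and Gm24463 (7.09 and 8.78) among the higher ones. None of 11 listed long noncoding RNAs was called, with Neat1 at 6.68 and 5.80 and Malat1 at 9.65 and 9.29. Xist was at 8.46 and 8.79 but at 1.93 on the GFP-negative and 2.44 on the LncGata6 mutant array. At this gene the context arrays thus differed strongly from the compared arrays, and its part in their other values was not tested.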

How the data were processed

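The deposited series table holds the authors' log2 values, 1 per array feature; the submitters' processing notes list RMA and Affymetrix Power Tools. Their versions, and a genome build, are not given in the sources used here. Background subtraction in RMA compresses low values. On the Ehf knockout array, groups of dim genes also shared exactly the same value. Trpm5, Muc1, Slc12a3 and Meis1 were all at 2.947 there, but at 3.566, 3.178, 2.955 and 2.414 on the wild-type array. Cdt1, Cdc45 and Stat2 were all at 5.357, just above the control limit, against 5.126, 4.897 and 4.990. Values of dim genes on that array are therefore coarse, and the reason was not tested. Symbols from the platform annotation were updated through RefSeq's GRCm38.p6 gene table (1801 changed); 1480 features with several symbols and 39938 unnamed ones were left out. Of 441 genes with several features, the brightest feature (by its mean of all 4 arrays) was kept.

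Calls needed a difference of 1 and a brighter value at the 95th percentile of negative controls. An earlier rule used each array's 75th percentile (4.97 and 4.61 here), which lies under that limit and is kept as an alternative. Folds are brighter over dimmer, with a dimmer value under its array's limit raised to it ("at least"); no fold is given where the bound is under 1.

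The 58 lists (975 measured genes of 1085) and 58 families were chosen with earlier results of these data known. Named genes are the axis genes, the 20 largest protein-coding and 5 largest noncoding differences each way, and per list up to 6 called members, exceptions and defining markers; uncalled genes and 4-array values beyond this were chosen after their values were seen. Counting was checked on simulated data. Python 3.11.15, pandas 2.3.3, numpy 2.4.6, R 4.3.3 and limma 3.58.1 were used. The number of arrays, 1 per group, limits the precision.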

Additional observations from a re-analysis of the deposited data

Results flagged for a closer look

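Features outside the gene comparison also passed both limits. Of 33185 transcript clusters with no gene name here, 254 had higher values on the Ehf knockout array and 253 had lower ones (0.77% and 0.76%), against 0.69% and 1.84% of the 5222 negative controls. Of 1480 features with several symbols, 49 were higher and 52 lower (3.31% and 3.51%). They were set aside because they carry no single symbol, and no gene is named from them.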

How the results depend on the processing

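Of 664 higher and 1152 lower genes, 150 and 179 were left with the 99th percentile of controls as the limit, and 282 and 449 with a difference of at least 2. With no limit on dim genes there were 1098 and 2465. The other alternatives kept both counts within 1.5 times: 796 and 1627 with the 75th percentile of the array, 661 and 1146 with the mean of a gene's features, 540 and 1152 with the higher of both control limits on both arrays (an alternative chosen after seeing the data), and the 3 scalings given above. Lists with more lower than higher members numbered 26, and 18 to 31 under the alternatives. Of 532 named genes that passed both limits, 0 reversed direction under any of the 8 settings recomputed per gene. Settings that change only the limit reuse the same values, so no direction could reverse there. Median centring moved the median difference only from -0.20 to -0.01, far less than the difference of 1 each call needed. The absence of reversals is therefore no check of the calls. The call was lost for 39 after median centring, 49 after quantile normalization, 53 after cyclic loess and 377 with the 99th percentile. The innate lymphoid list (median -0.042) reversed with the 75th percentile and with no limit, to 2 higher and 3 lower members, since dimmer genes then count. No paired analysis was possible because each group has 1 array, and for the same reason no array could be left out.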

Other observations

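Families grouped by symbol held further differences. Of 62 snoRNA genes, which guide RNA modification, 20 were higher and 4 lower, led by Snord111 (4.20 on the wild-type and 7.40 on the Ehf knockout array) and Snord72 (5.09 and 7.68); after the scalings 24 were higher. Of 57 histone genes 9 were higher and none lower, led by H2ac20 (4.87 and 7.16), and near-identical copies cannot be told apart. Gasdermins of the C cluster were lower, with Gsdmc4 at 9.16 and 2.94, Gsdmc2 at 8.41 and 2.47 and Gsdmc3 at 8.28 and 2.42. Il13ra1, a receptor chain for interleukin-13, was at 6.86, 11.81 and 10.59 on the GFP-negative, wild-type and LncGata6 mutant arrays and 5.97 on the Ehf knockout array. The remaining interleukin receptors called were lower for Il22ra1 (6.55 and 3.65) and Il17rc (6.72 and 4.41), which act in epithelia, and higher for 6 genes, including Il17ra (3.96 and 6.05) and Il2rb (4.22 and 6.09).

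Genes of the mitochondrial machinery were lower where called, and fewer were called once arrays were scaled. Of 80 mitochondrial ribosomal proteins 8 were lower, and 3 or 4 after scaling. Of 23 ATP synthase genes, 6 were lower as deposited and 2 to 4 after scaling. Among genes at or above the wild-type control limit, 8 of 27 and 6 of 19 in these families were lower, against 1152 of 5073 of all genes. Whether these shares differ was not tested. Of 5 mitochondrially encoded genes with a symbol 4 were lower, with a median difference of -1.02. Of 265 cytosolic ribosomal protein genes and pseudogenes 2 were lower as deposited and 0 after each scaling. None of 1229 olfactory and 493 vomeronasal receptor genes was called. On the wild-type array 0 olfactory and 0 vomeronasal receptor genes were at or above the control limit, and on the Ehf knockout array 1 and 0 were. The limit on dim genes thus nearly fixed this result, and it is no check of the rule.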
